A study of Mus musculus with 4 samples.

Results

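The genes described here encode the chains of the integrins and laminins: 18 integrin alpha chains, 8 integrin beta chains and 10 laminin chains. They were taken as a list of 36 gene symbols from 39179 genes counted in mouse skin. The list follows the names of the 2 gene families and was chosen with earlier results of these data known. All 36 symbols matched a gene in GENCODE vM21 (GRCm38). RNA was sequenced from skin of C57BL/6 mice in 4 libraries. In the wild-type group (WT), 2 libraries came from skin of mice with intact Itch, and in the Itch KO group 2 libraries came from lesional skin of mice lacking Itch, a ubiquitin ligase. The phenotype entry reads inflammation for WT and KO libraries alike. Whether a group's libraries came from separate animals is not in the labels. P-values therefore measure only the spread between these libraries, which may be technical.

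Integrins are cell surface receptors that pair an alpha with a beta chain. They bind matrix proteins or counter-receptors on other cells and couple them to the cytoskeleton. Laminins are trimers of an alpha, a beta and a gamma chain that form, with collagen IV, the sheet of the basement membrane. In skin, basal keratinocytes hold on to this sheet through integrin alpha-6 beta-4 in hemidesmosomes and through alpha-3 beta-1, both of which bind laminin. Leukocytes carry their own set, the beta-2 and beta-7 integrins and alpha-4, which they use to stick to vessel walls and to move through tissue.

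Reads assigned to genes numbered 15144957 to 16008351 per library, and the floor of 3 counts corresponded to 0.187 to 0.198 CPM (gene counts scaled to the library total), for counting error only. Itch, the targeted gene, had 96.7 and 103 CPM in the WT libraries against 11.7 and 11.7 CPM in the KO libraries. Xist, a marker of female cells, had 1055 and 631 CPM in the WT libraries against 0.947 and 0.892 CPM in the KO libraries. Since 4 Y-linked genes summed to 0.267 and 0.316 versus 176 and 153 CPM, genotype and sex cannot be told apart in any comparison here. WT replicate 1 stood apart: 6 skeletal muscle markers summed to 11674 CPM there, against 1858 in WT replicate 2 and 939 and 777 in KO replicates 1 and 2. The 3 hair shaft markers found summed to 2.20 CPM in WT replicate 1, against 287 in WT replicate 2 and 653 and 470 in the KO libraries. Across genes, log2(CPM + 1) in WT replicate 2 correlated at 0.923 with WT replicate 1 and at 0.931 and 0.945 with the KO libraries, a description over genes and not over replicates. The defining keratinocyte markers were present, with 5 basal markers summing to between 6550 and 7518 CPM in each of the 4 libraries. In bulk skin, fewer cells of a type and less RNA per cell cannot be told apart.

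The 7 tested leukocyte integrin chains, both platelet chains, and Itga5, Itga11, Lama2 and Lamb1 among others stood higher in both Itch KO libraries. Itga6, Itgb4, Lama3 and Lamb3, which anchor the epidermis, did not separate the groups. Of the 36 chains, 35 passed the filter on low counts and were tested. The edgeR quasi-likelihood test, adjusted by Benjamini-Hochberg over 16651 genes, called 0 of the 35 at adjusted p under 0.05, as against 0.00601% of all tested genes. At an unadjusted p under 0.05, edgeR counted 16 chains higher in the KO libraries, where 12.0% of all tested genes were, and 1 chain lower, where 10.9% were. DESeq2 called 14 chains higher and 1 lower at adjusted p under 0.05, against 7.99% and 6.28% of all genes it tested. Both KO libraries lay above both WT libraries for 19 chains (31.2% of all tested genes) and below them for 2 (30.0%), and the groups overlapped for 14. The median log2 fold change of KO over WT was 0.46 over the 35 chains and 0.0084 over all tested genes, and the median size regardless of sign was 0.64 against 0.42. Leaving out WT replicate 1, edgeR called 11 chains at adjusted p under 0.05, where 7.69% of all tested genes were called. Leaving out WT replicate 2, it called 18, where 30.6% were, so the larger count came with more calls over all genes. At an unadjusted p under 0.05 the same fits counted 19 chains (23.7% of all tested genes) and 21 chains (44.0%). In both fits the lone WT library is assumed to vary like the KO libraries. With no filter on low counts edgeR called 6 chains, where 1.99% of all genes were called. Without KO replicate 1 or KO replicate 2 it called 0, and the 17 chains at an unadjusted p under 0.05 became 8 and 12, where 8.29% and 8.67% of all tested genes were.

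**Figure D1:**
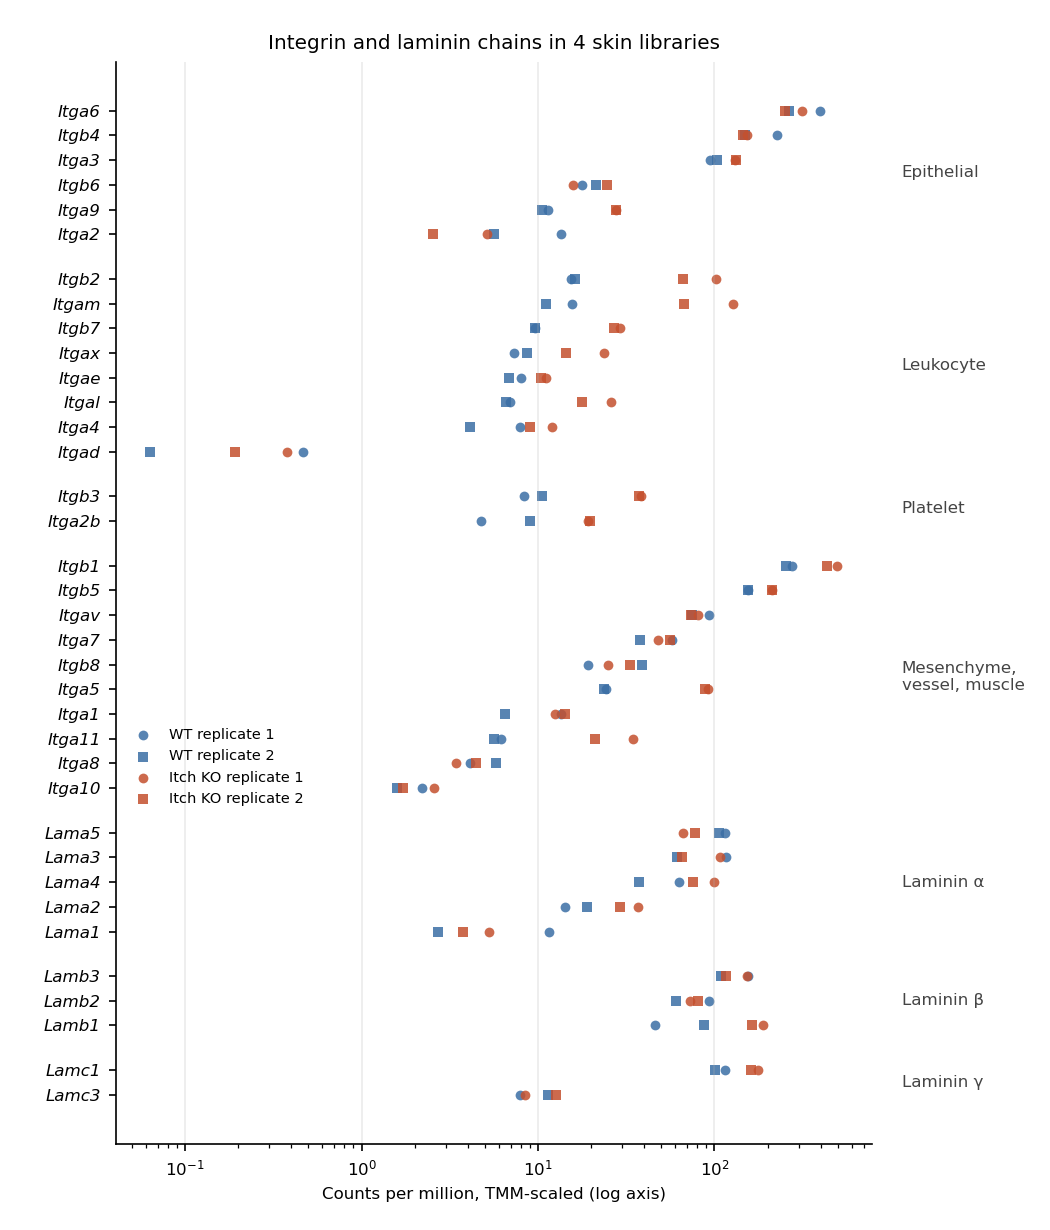
Levels of the 36 chains in each library, as TMM-scaled CPM on a log axis, grouped by role and ordered by the WT mean (blue, WT; red, Itch KO; circle, replicate 1; square, replicate 2). All 7 tested leukocyte chains have both KO points to the right of both WT points, while Itga6, Itgb4 and Itgb6 overlap.

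The leukocyte integrins were higher in both KO libraries for each of the 7 chains that could be tested, with a median log2 fold change of 1.54. Of all tested genes, 31.2% had both KO libraries above both WT libraries. Of these 7, 5 had an edgeR unadjusted p under 0.05, where 12.0% of all tested genes were higher. DESeq2 called the same number, where 7.99% of all genes it tested were higher. The lowest edgeR adjusted p was 0.0624. Itgb2 encodes the beta-2 chain common to the leukocyte-specific integrins. Its level was 15.4 and 16.2 CPM in the WT libraries against 103 and 66.7 CPM in KO replicates 1 and 2. The WT libraries were nearly equal and both KO libraries were far above them, KO replicate 1 the higher (log2 fold change 2.42, SE 0.27, edgeR adjusted p = 0.0624).

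Itgam encodes the alpha-M chain (CD11b), which pairs with beta-2 on neutrophils, monocytes and macrophages and binds complement fragment iC3b and ICAM-1. It had 15.5 and 11 CPM in the WT libraries against 127 and 66.8 CPM in the KO libraries, the largest fold change of the 35 chains (2.86, SE 0.41, edgeR adjusted p = 0.0750). KO replicate 1 was again the higher, and the groups did not overlap. Itgal, the alpha-L chain of LFA-1 that T cells and other leukocytes use to bind ICAM-1, stood at 6.93 and 6.56 versus 26.0 and 17.8 CPM (log2 fold change of 1.70, SE 0.30, edgeR adjusted p = 0.0901). Itgax, the alpha-X chain (CD11c) of dendritic cells and some macrophages, stood at 7.33 and 8.71 versus 23.6 and 14.5 CPM (1.24, SE 0.34, edgeR adjusted p = 0.156). In each of these beta-2 partners the order of the KO libraries was the same as for Itgb2. Itgad, the remaining partner, was read 7 and 1 times in WT libraries and 6 and 3 times in KO libraries, near the floor, too few to detect any difference.

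Of the beta-7 and alpha-4 chains, Itgb7 differed about as much as Itgal, and Itgae and Itga4 by less. Itgb7, which pairs with alpha-4 for homing to MAdCAM-1 or with alpha-E for binding E-cadherin, had 9.67 and 9.66 CPM in the WT libraries against 29.2 and 27.0 CPM in the KO libraries (log2 fold change 1.54, SE 0.21, edgeR adjusted p = 0.0716). Its alpha-E partner Itgae, the chain (CD103) by which intraepithelial T cells hold on to keratinocytes, stood at 8.0 and 6.88 versus 11.1 and 10.4 CPM (0.53, SE 0.27, edgeR adjusted p = 0.305). Itga4, whose product pairs with beta-1 or beta-7 and binds VCAM-1, stood at 7.93 and 4.10 versus 12.0 and 8.98 CPM (0.80, SE 0.44, edgeR adjusted p = 0.333). For Itga4 the WT libraries lay further apart than WT replicate 1 lay from KO replicate 2. Its log2 fold change was 1.35 without WT replicate 1 and 0.41 without WT replicate 2. Cerkl on the opposite strand overlaps 8.04% of its exon bases, and the strand setting of the counting is not given in the sources used here, so its count is uncertain.

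Leukocyte markers moved with these chains. The 5 general leukocyte markers, Ptprc (CD45) among them, summed to 207 and 166 CPM in WT libraries against 1124 and 805 CPM in KO libraries. Of these, 5 of 5 had both KO libraries above both WT libraries (31.2% of all tested genes). The same held for 6 of 6 macrophage markers (summed 184 and 193 versus 1506 and 1417 CPM) and for 6 of 6 neutrophil markers (36.1 and 53.5 versus 1939 and 912 CPM), of which Ly6g had 0 counts in both WT libraries. Of 6 T cell markers, 4 lay above, and the list overlapped when summed (51.7 and 31.9 versus 63.0 and 49.3 CPM). Eosinophil and mast cell markers summed to 93.3 and 173 versus 332 and 574 CPM, with 5 of 6 above. Langerhans and dendritic cell markers, a list that holds Itgax itself, overlapped when summed (222 and 385 versus 266 and 309 CPM). In that list 3 of 5 lay above and 1 below (31.2% and 30.0% of all tested genes). The part of these cells in the integrin levels was not tested.

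Ratios inside a library do not depend on how libraries are scaled. Here each level was divided by the kilobases of exon of its gene, so that genes of different length could be compared. Itgb2 stood to Ptprc as 2.53 and 4.47 in WT and as 4.77 and 4.97 in the KO libraries, and WT replicate 1 was the library that differed. The ratio of Itgam to Csf1r, the macrophage growth factor receptor, was 0.246 and 0.231 in WT and 0.516 and 0.354 in the KO libraries. Itgam was thus higher per Csf1r in both. Csf1r had the lowest log2 fold change of the macrophage markers, 1.97 in a list that ran to 3.83, and Itgam had 2.86. Ptprc was likewise the lowest of the general leukocyte markers, 1.85 in a list that ran to 3.06, and Itgb2 had 2.42. Ratios to the other markers of these lists were not made, so the ratios above describe Csf1r and Ptprc only. The alpha chains Itgal, Itgam, Itgax and Itgad together stood to Itgb2 as 1.15 and 0.946 in WT and as 1.02 and 0.872 in the KO libraries, and the groups overlapped. Singly, the alpha chains differed in this ratio. Itgax to Itgb2 was 0.303 and 0.341 in WT but 0.146 and 0.138 in the KO libraries, and Itgal to Itgb2 was 0.209 and 0.188 but 0.118 and 0.124, both lower without overlap. Itgam to Itgb2 overlapped, at 0.613 and 0.414 in WT and 0.751 and 0.608 in the KO libraries. Itgae to Itgb7 was different, at 0.50 and 0.431 in WT and 0.229 and 0.234 in the KO libraries, with a mean difference of -1.01 on the log2 scale against a spread of 0.11 (pooled SD of 2 libraries per group, no test).

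Since Itgam and other chains stood higher together, the 250 bases before the annotated start are shown for 7 chains: Itgam and Itgax of the leukocyte set, Itga5, Itga11 and Lamb1, which were higher in the KO libraries outside it, and Itga3 and Lama5 of the epidermal set. RefSeq (GRCm38.p6) windows were matched by symbol for 23 of the 36 chains, 26 windows in all. Capitals mark GAGGAA on either strand (TTCCTC where it lies on the other), the core letters bound by PU.1, a transcription factor of myeloid cells.
Itgam, chr7:128062390-128062639, plus strand: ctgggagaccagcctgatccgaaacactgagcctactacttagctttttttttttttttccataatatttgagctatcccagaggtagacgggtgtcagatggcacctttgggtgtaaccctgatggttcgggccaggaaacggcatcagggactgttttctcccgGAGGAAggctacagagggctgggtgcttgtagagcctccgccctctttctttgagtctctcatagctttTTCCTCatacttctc
Itgax, chr7:128129300-128129549, plus strand: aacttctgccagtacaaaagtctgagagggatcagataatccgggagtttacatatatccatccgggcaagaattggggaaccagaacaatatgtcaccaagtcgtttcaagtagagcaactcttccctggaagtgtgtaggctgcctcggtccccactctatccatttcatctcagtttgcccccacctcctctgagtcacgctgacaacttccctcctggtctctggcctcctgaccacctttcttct
Itga5, chr15:103366792-103367041, minus strand: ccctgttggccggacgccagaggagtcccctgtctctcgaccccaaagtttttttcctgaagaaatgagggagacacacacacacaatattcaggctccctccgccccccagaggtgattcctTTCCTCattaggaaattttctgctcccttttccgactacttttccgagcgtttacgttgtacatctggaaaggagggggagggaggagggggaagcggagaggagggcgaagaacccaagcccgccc
Itga11, chr9:62677605-62677854, plus strand: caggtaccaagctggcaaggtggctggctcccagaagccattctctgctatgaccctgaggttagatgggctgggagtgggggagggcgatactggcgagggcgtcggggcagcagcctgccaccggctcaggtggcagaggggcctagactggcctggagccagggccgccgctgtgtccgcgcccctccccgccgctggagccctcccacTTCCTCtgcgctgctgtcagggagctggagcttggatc
Lamb1, chr12:31265043-31265292, plus strand: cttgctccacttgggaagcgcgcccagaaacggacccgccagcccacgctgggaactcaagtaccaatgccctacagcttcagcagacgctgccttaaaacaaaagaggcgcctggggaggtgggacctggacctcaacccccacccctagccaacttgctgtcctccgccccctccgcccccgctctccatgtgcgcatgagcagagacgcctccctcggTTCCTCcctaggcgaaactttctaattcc
Itga3, chr11:95076715-95076964, minus strand: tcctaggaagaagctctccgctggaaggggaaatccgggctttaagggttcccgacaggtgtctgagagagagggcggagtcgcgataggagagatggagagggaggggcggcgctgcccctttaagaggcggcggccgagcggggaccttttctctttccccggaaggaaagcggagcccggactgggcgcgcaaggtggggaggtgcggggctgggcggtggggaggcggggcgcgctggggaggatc
Lama5, chr2:180225860-180226109, minus strand: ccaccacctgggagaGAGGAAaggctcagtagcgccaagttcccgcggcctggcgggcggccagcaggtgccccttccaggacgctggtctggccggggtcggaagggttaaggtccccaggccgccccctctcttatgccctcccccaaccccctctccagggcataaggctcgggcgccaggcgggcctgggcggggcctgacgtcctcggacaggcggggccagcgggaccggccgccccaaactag
The Itgam window held 2 matches, starting 84 and 15 bases before the start, the second on the opposite strand. Itgax, of the same family, held none, and Itga5, Itga11, Lamb1 and Lama5 held 1 each. The Itga3 window shown held none, and a second annotated Itga3 start, not shown, held 1. Over all 32851 windows of this length, 23.3% held at least 1 match, and 13 of the 26 windows of the chains did. CpG dinucleotides numbered 6 in the Itgam window, 5 in Itgax, 11 in Itga5, 12 in Itga11, 14 in Lamb1, 22 in Itga3 and 19 in Lama5, with a median of 6 over all windows. The numbers did not divide the chains by role, since the second Itga3 window held 5, the Itgb6 windows 3 and 11, and the Lamb3 windows 2 and 3. A match is a description of the letters and not of binding.

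The platelet integrin chains were also higher. Itgb3, the beta-3 chain that pairs with alpha-IIb on platelets and with alpha-V on endothelium, osteoclasts and macrophages, had 8.33 and 10.5 CPM in the WT libraries against 38.2 and 37.3 CPM in the KO libraries (log2 fold change 2.00, SE 0.22, edgeR adjusted p = 0.0624). Itga2b, the alpha-IIb chain of the fibrinogen receptor, stood at 4.73 and 9.03 versus 19.1 and 19.6 CPM (1.49, SE 0.39, edgeR adjusted p = 0.146). The KO libraries agreed within a few percent for each chain, and WT replicate 1 was the lowest for both. Of 5 platelet markers 4 could be tested, and 3 of these had both KO libraries above both WT libraries (31.2% of all tested genes). The list summed to 14.0 and 18.2 versus 81.6 and 95.4 CPM. Pf4 stood at 9.40 and 9.72 versus 69.2 and 83.0 CPM, and Gp1bb, a chain of the von Willebrand factor receptor, at 4.33 and 7.01 versus 9.16 and 9.49 CPM. Ppbp, a platelet chemokine, was low throughout at 0.133 and 0.189 versus 1.58 and 1.47 CPM (log2 fold change of 3.17, SE 0.50, edgeR adjusted p = 0.0802). Gp5, another chain of the von Willebrand factor receptor, stood at 0.133 and 1.33 versus 0.947 and 1.21 CPM, and Gp9 was counted 0 times in either WT library, but 11 and 4 times in the KO pair. The part of platelets in the 2 chains was not tested.

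**Figure D2:**
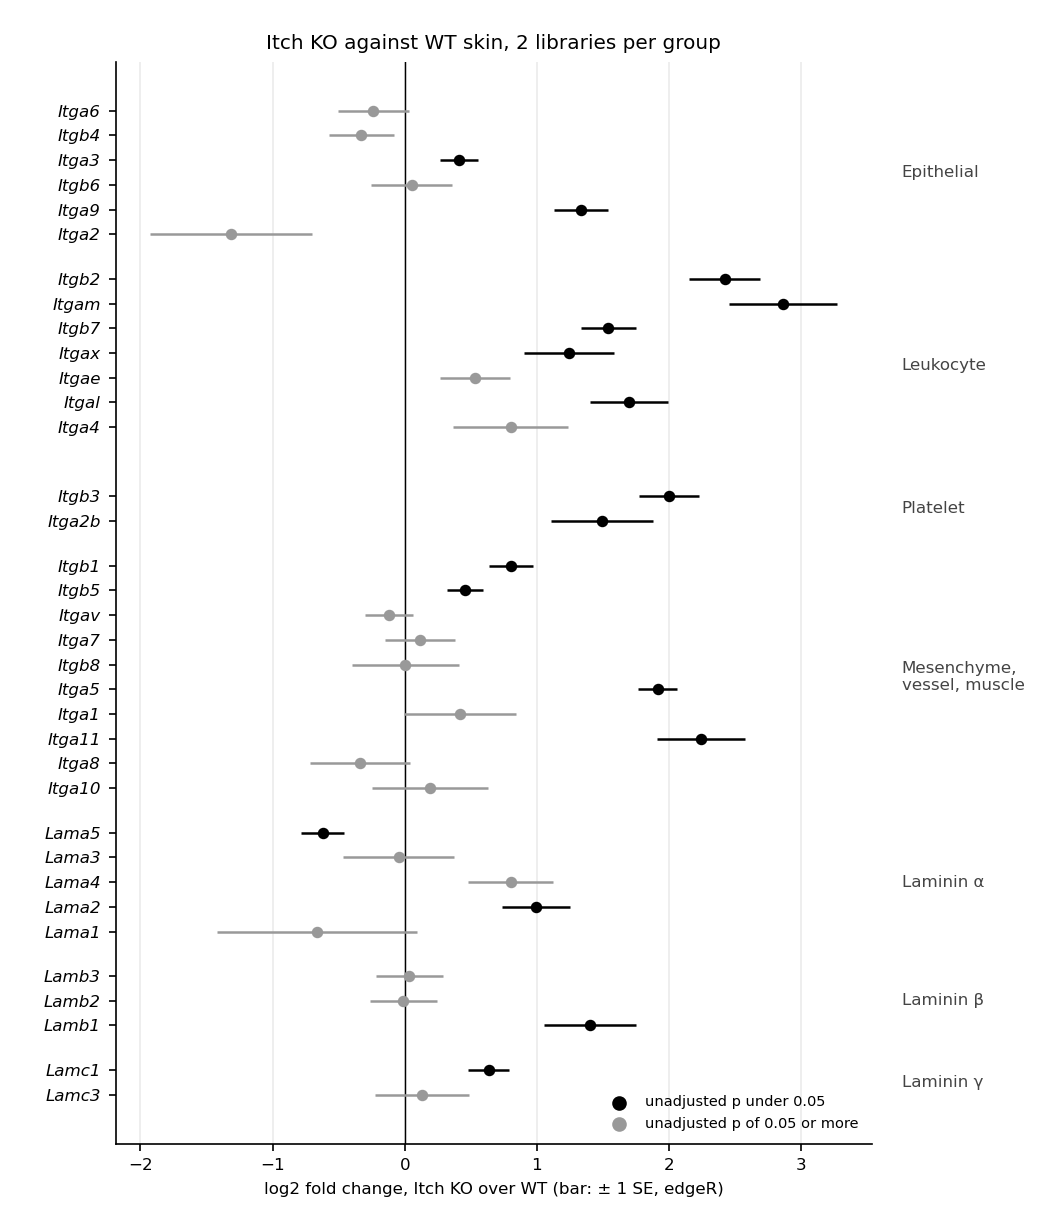
Log2 fold change of Itch KO over WT for the 35 tested chains with 1 SE to each side (edgeR, 2 libraries per group), black where the unadjusted p is under 0.05. No chain has an adjusted p under 0.05. The leukocyte and platelet chains lie between 0.53 and 2.86, and the epithelial chains between -1.31 and 1.33.

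The epithelial integrins showed no common direction. Per kilobase of exon, Itga6, Itgb4 and Itga3 stood next after Itgb1 and Itgb5 among all integrin chains in WT. The median log2 fold change was -0.09 over the 6 epithelial chains, with 2 chains having both KO libraries above, 1 below and 3 overlapping. Of all tested genes, 31.2% lay above and 30.0% below. At an unadjusted p under 0.05, edgeR counted 2 higher and 0 lower, where 12.0% and 10.9% of all tested genes were. Itga6, the laminin-binding chain of hemidesmosomes, had 397 and 264 CPM in the WT libraries against 312 and 250 CPM in the KO libraries (log2 fold change -0.24, SE 0.27, edgeR adjusted p = 0.623). Its partner Itgb4, the beta-4 chain with a long cytoplasmic tail that binds plectin, stood at 225 and 149 versus 153 and 145 CPM (-0.33, SE 0.24, edgeR adjusted p = 0.452). In both genes WT replicate 1 was the highest library, and for Itgb4 the other 3 libraries were close together. Without WT replicate 1 the Itgb4 difference was -0.0055, and without WT replicate 2 it was -0.59 with edgeR adjusted p = 0.0312. B230344G16Rik lies on the opposite strand over 7.66% of the Itgb4 exon bases, so its count is uncertain.

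The alpha-6 and beta-4 chains kept a near-fixed proportion. The ratio of Itga6 to Itgb4 per kilobase of exon was 1.37 and 1.38 in WT and 1.58 and 1.34 in the KO libraries. Set against Krt5, a keratin of basal cells, Itgb4 stood at 0.0241 and 0.0164 in WT and at 0.0169 and 0.0154 in the KO libraries, a range in which WT replicate 1 was again the one apart. The basal keratinocyte markers showed no common direction either, with 1 of 5 above and 2 of 5 below (31.2% and 30.0% of all tested genes).

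The other epithelial chains went different ways. Itga3, the alpha-3 chain that binds epidermal laminin, had 94.9 and 103 CPM in the WT libraries against 131 and 133 CPM in the KO libraries (log2 fold change 0.41, SE 0.14, edgeR adjusted p = 0.202). Itga9, an alpha chain for tenascin-C and VCAM-1 found on keratinocytes, muscle and some leukocytes, stood at 11.4 and 10.5 versus 27.5 and 27.7 CPM (1.33, SE 0.21, edgeR adjusted p = 0.0784). For both chains the replicates lay close and the groups did not overlap. Itga2, the collagen-binding alpha-2 chain of basal keratinocytes, was the only integrin chain with both KO libraries below both WT libraries, at 13.5 and 5.62 versus 5.12 and 2.55 CPM (-1.31, SE 0.61, edgeR adjusted p = 0.283). The gap between WT replicate 2 and KO replicate 1 was small beside the spread within each group, and the log2 fold change was -0.55 without WT replicate 1 and -1.81 without WT replicate 2, with edgeR adjusted p = 0.0344 in the latter. Itgb6, which pairs with alpha-V on epithelium and activates TGF-beta, stood at 17.8 and 21.2 versus 15.7 and 24.7 CPM, with the KO libraries on either side of WT (0.05, SE 0.31, edgeR adjusted p = 0.931).

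Leukocyte and epithelial integrins were then compared in each library. The mean of log2(CPM + 1) over the 8 leukocyte chains was 3.05 and 2.84 in WT and 4.47 and 4.03 in the KO libraries, while over the 6 epithelial chains it was 5.79 and 5.45 against 5.69 and 5.59. The leukocyte mean minus the epithelial mean was -2.74 and -2.61 in WT, and -1.22 and -1.56 in the KO libraries. The gap was thus narrower by 1.28 on this scale in the KO libraries, with a spread of 0.18 (pooled SD of 2 libraries per group), and the epithelial means overlapped. No test was made on these means, since the chains were chosen with earlier results of these data known. Itgb1, the partner of alpha-3 in basal keratinocytes, was in neither list. As a single pair, Itgb2 to Itgb4 per kilobase of exon was 0.157 and 0.25 in WT and 1.54 and 1.06 in the KO libraries. By this measure Itgb2 stood above Itgb4 in both KO libraries, narrowly in KO replicate 2. The length used was all annotated exon bases, 3052 for Itgb2 and 7015 for Itgb4. In CPM, without division by length, Itgb4 stayed the higher in both KO libraries, at 153 and 145 against 103 and 66.7 CPM.

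**Figure D3:**
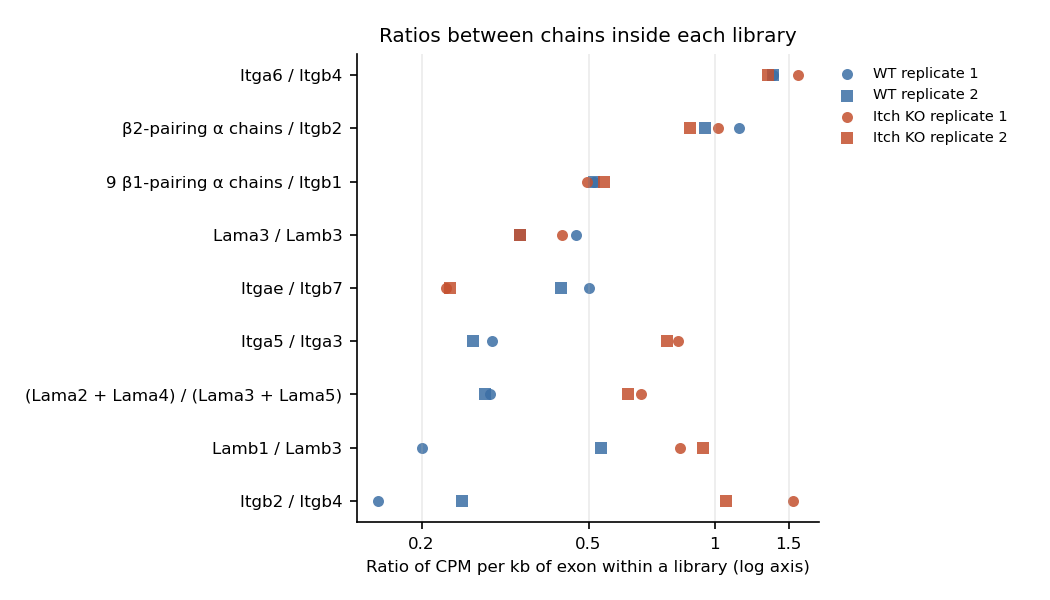
Ratios between chains inside each library, from CPM per kilobase of exon, on a log axis (blue, WT; red, Itch KO; circle, replicate 1; square, replicate 2). The first 4 ratios overlap between the groups, such as Itga6 to Itgb4 at 1.34 to 1.58, and the last 5 do not, such as Itgb2 to Itgb4.

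Among the integrins of mesenchyme, vessels and muscle, a few chains stood higher in both KO libraries and most overlapped. Of 10 chains, 4 had both KO libraries above both WT libraries, where 31.2% of all tested genes did. All 4 had an edgeR unadjusted p under 0.05, where 12.0% of all tested genes were higher. DESeq2 called 3 of the 10, all higher, where 7.99% of all genes it tested were. Itga5, the fibronectin receptor alpha chain, had 24.2 and 23.7 CPM in the WT libraries against 92.5 and 87.9 CPM in the KO libraries. The replicates differed little in either group, and this was the lowest edgeR adjusted p of the 35 chains (log2 fold change 1.91, SE 0.15, adjusted p = 0.0548). It was 0.00586 without WT replicate 1 and 0.00125 without WT replicate 2, and 0.338 and 0.228 without KO replicates 1 and 2. Itga11, a collagen receptor chain of fibroblasts, stood at 6.13 and 5.62 versus 34.5 and 21.1 CPM (2.24, SE 0.33, edgeR adjusted p = 0.0766). Itgb1, the common partner of both, stood at 277 and 255 versus 496 and 434 CPM (0.80, SE 0.17, edgeR adjusted p = 0.114). Basal keratinocytes also use Itgb1, as the partner of alpha-3, so its level is not particular to this set. Itgb5, which pairs with alpha-V and binds vitronectin, differed by less, at 156 and 154 versus 212 and 213 CPM (0.46, SE 0.14, edgeR adjusted p = 0.175).

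The beta-1 chain and the sum of 9 of its partners stood in a similar proportion in all 4 libraries. Itga4, Itgav and Itga6, the alpha chain of highest level per kilobase in both groups, were left out of this sum. The proportion therefore describes these 9 chains only. The 9 alpha chains Itga1, Itga2, Itga3, Itga5, Itga7, Itga8, Itga9, Itga10 and Itga11 together stood to Itgb1 per kilobase of exon as 0.515 and 0.516 in WT and as 0.496 and 0.544 in the KO libraries. Itga5 stood to Itga3 as 0.295 and 0.265 in WT and as 0.817 and 0.767 in the KO libraries, a mean difference of 1.5 on the log2 scale against a spread of 0.09 (pooled SD, no test). Fibroblast markers moved with Itga5 and Itga11. All 6 had both KO libraries above both WT libraries (31.2% of all tested genes), and they summed to 1641 and 2456 versus 8863 and 8289 CPM. Smooth muscle and pericyte markers summed to 277 and 285 versus 506 and 525 CPM, with 3 of 5 above. Their part in these levels was not tested. Relative to Pdgfra, a receptor that marks fibroblasts, Itga5 stood at 1.75 and 0.968 in WT and 1.15 and 1.14 in the KO libraries, and Itga11 at 0.427 and 0.221 against 0.413 and 0.264. The groups overlapped in both ratios. Pdgfra had a log2 fold change of 2.04, in a list that ran from 0.60 to 2.93. Ratios to the other fibroblast markers were not made, so these describe Pdgfra only.

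The remaining chains of the set did not separate the groups. Itgav, the alpha-V chain of the vitronectin receptors, stood at 93.1 and 74.4 versus 80.7 and 73.8 CPM (log2 fold change of -0.12, SE 0.18, edgeR adjusted p = 0.721). Itgb8, which with alpha-V activates TGF-beta, stood at 19.2 and 38.7 versus 24.8 and 33.3 CPM, with both KO libraries between the WT libraries. Its fold change was near 0 and its sign depended on the scaling, 0.0043 with TMM and -0.0039 with DESeq2 size factors. Itga7, the laminin receptor chain of skeletal muscle, stood at 57.8 and 37.9 versus 47.6 and 56.1 CPM. The muscle marker list differed far more between these libraries than Itga7 did, and KO replicate 2, the lowest library for muscle markers, was close to WT replicate 1 for Itga7. The part of muscle in the Itga7 level was not tested. Itga1, a collagen receptor chain of vessels and stroma, stood at 13.5 and 6.50 versus 12.5 and 14.2 CPM. Itga8, of smooth muscle and other contractile mesenchyme, stood at 4.13 and 5.81 versus 3.41 and 4.46 CPM, and Itga10, of cartilage, at 2.20 and 1.58 versus 2.59 and 1.72 CPM. Each of these 3 overlapped between the groups. Opposite-strand genes overlap exons of Itgav, Itga7 and Itga8, whose counts are uncertain for that reason.

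The laminin chains had no common direction. Lama2, Lama4, Lamb1 and Lamc1 stood higher in both KO libraries, Lama5 stood lower in both, and Lama1, Lama3, Lamb2, Lamb3 and Lamc3 overlapped. Over 10 chains the median log2 fold change was 0.08, with 4 above, 1 below and 5 overlapping. Of all tested genes, 31.2% lay above and 30.0% below. At an edgeR unadjusted p under 0.05, 3 chains were higher and 1 lower, where 12.0% and 10.9% of all tested genes were. DESeq2 gave the same numbers at adjusted p under 0.05, where 7.99% and 6.28% of all genes it tested were called. Lamb1, the beta-1 chain of most laminins outside the epidermis, had 46.2 and 87.5 CPM in the WT libraries against 189 and 164 CPM in the KO libraries (1.40, SE 0.35, edgeR adjusted p = 0.141). The WT libraries differed widely, and the log2 fold change was 1.01 without WT replicate 1 and 1.94 without WT replicate 2. Lamc1, the gamma-1 chain of most laminins, stood at 115 and 101 versus 176 and 161 CPM (0.64, SE 0.16, edgeR adjusted p = 0.137).

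Lama2, the alpha-2 chain of muscle, nerve and stroma, had 14.3 and 19 CPM in the WT libraries against 36.9 and 29.2 CPM in the KO libraries (log2 fold change 0.99, SE 0.26, edgeR adjusted p = 0.145). The library with the highest muscle markers, WT replicate 1, had the lowest Lama2 level. The same library had the lowest summed fibroblast markers, at 1641 CPM against 2456 in WT replicate 2 and 8863 and 8289 in the KO libraries. The part of muscle or fibroblasts in the Lama2 level was not tested. Lama4, the alpha-4 chain of vessel walls and other mesenchymal membranes, stood at 63.0 and 37.3 versus 99.7 and 75.2 CPM (0.80, SE 0.32, edgeR adjusted p = 0.239). Its log2 fold change was 1.23 without WT replicate 1, with edgeR adjusted p = 0.0326, and 0.48 without WT replicate 2. Endothelial markers summed to 286 and 120 versus 310 and 265 CPM, with WT replicate 2 the lowest library and KO replicate 1 the highest, as for Lama4. Of these 5 markers, 2 had both KO libraries above both WT libraries (31.2% of all tested genes) and 3 overlapped. Lama4 to Pecam1, an endothelial adhesion gene among the 2, was 0.268 and 0.328 in WT and 0.330 and 0.270 in the KO libraries. Kdr, among the 3 that overlapped, stood at 42.8 and 15.8 versus 27.7 and 26.4 CPM. Ratios of Lama4 to markers other than Pecam1 were not made. Relative to Pdgfra, Lamb1 was lower in both KO libraries, at 1.66 and 1.78 against 1.17 and 1.06, and Lama2 likewise, at 0.312 and 0.235 against 0.139 and 0.115.

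Lama5, the alpha-5 chain of epidermal, follicular and vascular basement membranes, was the 1 chain of the 35 that was lower at an unadjusted p under 0.05. It had 115 and 106 CPM in the WT libraries against 66.2 and 78.0 CPM in the KO libraries (log2 fold change -0.62, SE 0.16, edgeR adjusted p = 0.149). Lama3, the alpha-3 chain of the epidermal anchoring laminin, stood at 117 and 61.0 versus 107 and 65.1 CPM, and Lamb3, the beta-3 chain of the same trimer, at 154 and 109 versus 153 and 117 CPM. In both genes replicate 1 of each group was the higher and the groups overlapped almost fully (-0.04, SE 0.42, and 0.03, SE 0.25). The ratio of Lama3 to Lamb3 per kilobase of exon followed the same order, 0.466 and 0.344 against 0.432 and 0.343. Lamb2, found at synapses, vessels and kidney, stood at 93.1 and 60.9 versus 72.4 and 80.3 CPM (-0.01, SE 0.25). Lamc3, a gamma chain with an opposite-strand gene over its exons, stood at 7.93 and 11.4 versus 8.46 and 12.7 CPM. Lama1, mainly an embryonic chain, stood at 11.5 and 2.71 versus 5.24 and 3.76 CPM, and its log2 fold change of -0.66 (SE 0.76) became 0.72 without WT replicate 1 and -1.35 without WT replicate 2, with edgeR adjusted p = 0.0311 in the latter.

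As shares of each pool, the chains can be compared without regard to how the libraries were scaled. Itgb4 made up 20.3% and 14.7% of the summed integrin beta chains per kilobase in WT and 8.47% and 8.91% in the KO libraries, while Itgb2 made up 3.20% and 3.68% against 13.0% and 9.45%. Itgb1 was the largest share in each library, between 43.0% and 47.1%. Among alpha chains Itga6 made up 45.6% and 38.0% in WT and 24.1% and 23.5% in the KO libraries, and Itgam 3.20% and 2.86% against 17.6% and 11.3%. A share can go down without a lower level, as for Itga6, whose CPM overlapped between the groups. Lama2 and Lama4 together stood to Lama3 and Lama5 as 0.290 and 0.283 in WT and as 0.667 and 0.621 in the KO libraries, a mean difference of 1.17 on the log2 scale against a spread of 0.05 (pooled SD, no test). Lamb1 made up 10.8% and 25.0% of the laminin beta chains in WT and 35.3% and 34.9% in the KO libraries.

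**Figure D4:**
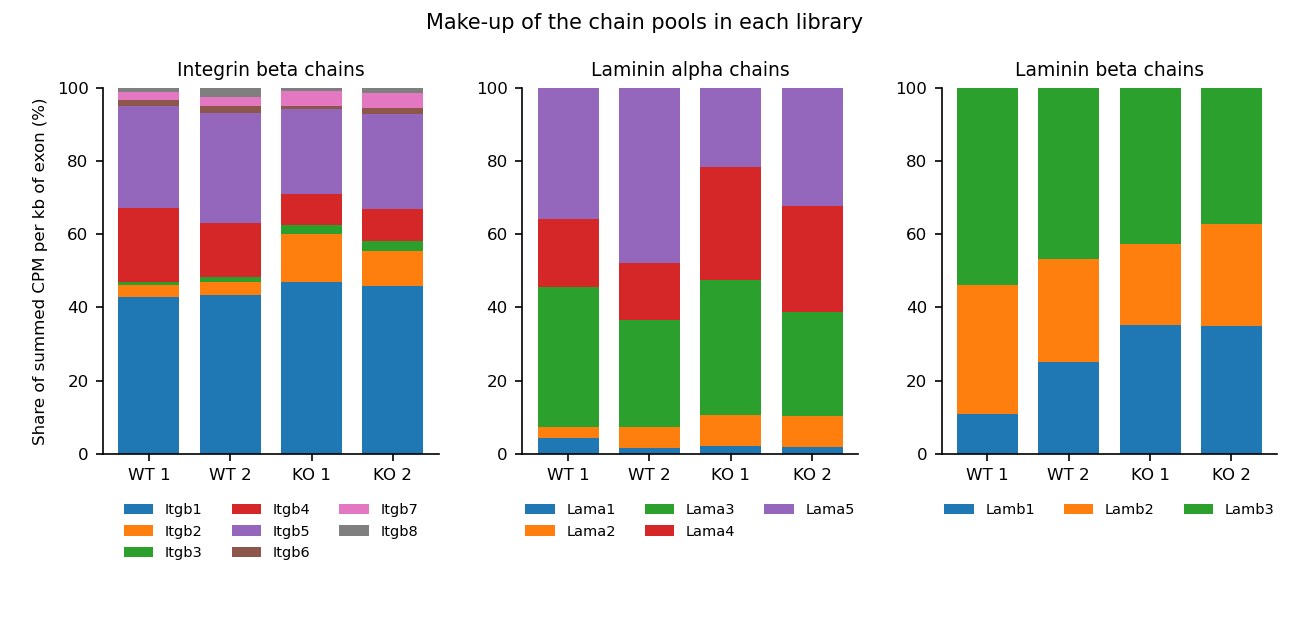
Share of each chain in the summed CPM per kilobase of exon of its pool, for integrin beta, laminin alpha and laminin beta chains, 1 bar per library. Itgb4 takes 20.3% and 14.7% of the beta pool in WT and 8.47% and 8.91% in the Itch KO libraries, and Itgb2 takes 3.20% and 3.68% against 13.0% and 9.45%.

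By mean level per kilobase, Itgb1 (65.2 in WT and 114 CPM per kb in KO), Itgb5 (43.6 and 59.9) and Itga6 (36.6 and 31.1) held the first 3 places among the 26 integrin chains in both groups. Itgb2 held place 8 in WT and place 4 in KO, Itgam 12 and 7, Itga11 20 and 13, and Itgb4 4 and 6. Neighbours in this order were often not separated by the libraries: Itgam, Itgb6 and Itgb8 in WT, at 2.65, 2.74 and 2.62 CPM per kb, overlapped between libraries in CPM per kb. Among laminins, Lamb3 stood at 19.9 CPM per kb in WT, above Lamc1 at 13.1, while in KO they stood together at 20.4 and 20.3, Lamc1 being the higher in KO replicate 2. Lamb1 held place 6 in WT and place 3 in KO.

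Genes that work with these chains differed in both directions. Of 13 hemidesmosome and basement membrane partners, edgeR counted 0 at adjusted p under 0.05. By unadjusted p (threshold 0.05) 5 were higher and 4 lower, where 12.0% and 10.9% of all tested genes were. Those higher were Col4a1, Col4a2, Nid1, Hspg2 and Col7a1. Col4a1, a collagen IV chain, stood at 250 and 262 versus 470 and 498 CPM, and Hspg2 (perlecan) at 131 and 114 versus 218 and 183 CPM. Col4a2, the partner of Col4a1, stood at 127 and 135 versus 281 and 307 CPM (log2 fold change of 1.17, SE 0.15, edgeR adjusted p = 0.0697), with no overlap. Those lower were Col17a1, Dst, Agrn and Frem2. Col17a1, the transmembrane collagen of hemidesmosomes, stood at 1797 and 956 versus 684 and 598 CPM (-1.10, SE 0.36, edgeR adjusted p = 0.187), and Dst, whose epithelial form links integrin beta-4 to keratin, at 754 and 417 versus 280 and 265 CPM (-1.10, SE 0.33, edgeR adjusted p = 0.171). For both, WT replicate 1 was far above WT replicate 2, and the KO libraries were lower still.

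Of 22 genes for integrin activators and adaptors, 21 could be tested, with 0 at edgeR adjusted p under 0.05. By unadjusted p (threshold 0.05) 8 were higher and 2 lower, where 12.0% and 10.9% of all tested genes were. DESeq2 called 6 higher, where 7.99% of all genes it tested were. Fermt3, the kindlin of blood cells that activates beta-2 and beta-3 integrins, had 18.5 and 12.7 CPM in the WT libraries against 47.7 and 48.1 CPM in the KO libraries (log2 fold change 1.62, SE 0.25, edgeR adjusted p = 0.0796). Apbb1ip (RIAM), which brings talin to integrins, stood at 11.7 and 9.09 versus 52.0 and 34.5 CPM (2.05, SE 0.31, edgeR adjusted p = 0.0766). Fermt1, the kindlin of keratinocytes, went the other way, at 68.8 and 59.8 versus 43.8 and 42.4 CPM (-0.58, SE 0.16, edgeR adjusted p = 0.158). Neither kindlin overlapped between the groups. Zyx, a focal adhesion adaptor, stood at 75.7 and 88.1 versus 207 and 210 CPM (1.35, SE 0.16, edgeR adjusted p = 0.0632).

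Of 17 integrin ligands, 15 could be tested, with 0 at edgeR adjusted p under 0.05. By unadjusted p (threshold 0.05) 8 were higher and 1 lower, where 12.0% and 10.9% of all tested genes were. DESeq2 called 7 higher and 1 lower, where 7.99% and 6.28% of all genes it tested were. Vcam1, the counter-receptor of alpha-4 and alpha-9 integrins, had 5.07 and 5.68 CPM in the WT libraries against 42.9 and 30.5 CPM in the KO libraries (log2 fold change 2.77, SE 0.28, edgeR adjusted p = 0.0558). Fn1, fibronectin, the ligand of alpha-5 beta-1, stood at 119 and 115 versus 755 and 475 CPM (2.40, SE 0.29, edgeR adjusted p = 0.0632). Receptor and ligand transcripts were thus both higher for the Itga5 and Fn1 pair. Icam1, the ligand of the alpha-L and alpha-M integrins, stood at 25.9 and 19.1 versus 48.3 and 36.7 CPM (0.92, SE 0.26, edgeR adjusted p = 0.161). Tnc, tenascin-C, a ligand of alpha-9, stood at 12.1 and 117 versus 499 and 663 CPM, with the WT libraries far apart (3.17, SE 1.13, edgeR adjusted p = 0.213). Npnt, the ligand of alpha-8 beta-1 made by the epidermis and its follicles, was the one lower, at 56.2 and 52.3 versus 17.2 and 24.7 CPM (-1.37, SE 0.24, edgeR adjusted p = 0.0916). Postn, periostin, a matrix ligand of alpha-V integrins, stood at 524 and 582 versus 1768 and 1310 CPM (1.48, SE 0.23, edgeR adjusted p = 0.0806), with no overlap.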

How the data were processed

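RNA from 2 WT and 2 Itch KO skin samples was measured by sequencing, and the sample titles gave each library's group and number. The authors deposited unnormalized read counts per Ensembl gene, 1 file per library. Tools named per the submitters' processing notes were HTSeq 0.6.1, SAMtools 0.1.19, TopHat2 and CASAVA 1.8.2, with the build mm10 (GRCm38). Annotation release, strand setting and read filters were not given in the sources used here. Opposite-strand genes in the files overlap exons of 7 chains (Itga4, Itga7, Itga8, Itgad, Itgav, Itgb4 and Lamc3), whose counts are uncertain. HTSeq counter lines (10.4% to 12.1% of reads) were left out.

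Symbols and exon lengths came from GENCODE vM21, which held 37607 of 39179 identifiers. Counts were filtered by filterByExpr (minimum count 10), scaled by TMM and tested in edgeR 4.0.16 (R 4.3.3) by the quasi-likelihood F test (robust, two-sided), with Benjamini-Hochberg adjustment over 16651 genes and a threshold of 0.05. SEs are the log2 fold change divided by the square root of F. The procedure was tested on simulated counts. Alternatives were DESeq2 1.42.0, limma-voom (limma 3.58.1), other scalings, no filter, a replicate block and leaving out each library. The chains, their roles and the companion gene lists were chosen with earlier results of these data known. All 36 chains are named, with up to 3 genes of smallest p per companion list. The other companion and marker genes given by name, such as Icam1, Tnc, Npnt, Col17a1, Dst, Fermt1 and Gp5, were named after their values were seen.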

Additional observations from a re-analysis of the deposited data

How the results depend on the processing

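The number of genes called by edgeR at adjusted p under 0.05 was 1 as reported, 488 with no filter on low counts, 2329 with DESeq2, 0 with limma-voom (3582 at an unadjusted p under 0.05), and between 0 and 5320 when 1 library was left out. For the chains the reported 0 became 6 with no filter (Itga11, Itga5, Itgam, Itgb2, Itgb3 and Itgb7), 15 with DESeq2, 0 with limma-voom (17 at an unadjusted p under 0.05) and between 0 and 18 when 1 library was left out, a fit in which the lone library is assumed to vary like the other group. The cause of these differences was not tested. The replicate block, fitted because the groups share the numbers 1 and 2, gave 0 genes (3998 at an unadjusted p under 0.05) and 0 chains (18). Same-numbered libraries correlated at 0.186 in their deviations, and with fewer than 3 pairs the libraries share only a number. The narrowing of the gap between leukocyte and epithelial integrins was 1.28 as reported, 1.03 with log2(CPM + 5), and 1.11 to 1.46 leaving out 1 library. Of 35 chains, 23 had the same sign in every setting run. Itgb8 was -0.0039 with DESeq2 size factors and with DESeq2 and -0.043 without TMM. Lamb2 was 0.024 with no filter, 0.020 with limma-voom and 0.018 with the replicate block. Leaving out 1 library gave -0.0070 to 1.03 for Itga1, -0.50 to 0.084 for Itga6, -0.15 to 0.45 for Itga7, -0.14 to 0.46 for Itga10, -0.27 to 0.050 for Itgav, -0.31 to 0.33 for Itgb6, -0.42 to 0.60 for Itgb8, -1.35 to 0.72 for Lama1, -0.45 to 0.49 for Lama3, -0.28 to 0.32 for Lamb2, -0.19 to 0.30 for Lamb3 and -0.19 to 0.42 for Lamc3. The leave-outs for ratios inside a library were chosen after seeing the data. Itgad was too low to test, and Itga10 (25 to 41 counts per library), Itga8 (54 to 92) and Lama1 (43 in WT replicate 2) were also low, so depth may limit what could be detected for them.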
